A study of Mus musculus with 4 samples.

Results

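Transcripts of 9 complement genes were followed in type II epithelial cells of mouse lung alveoli, which make surfactant. The 9 genes, C2, C3, C4b, Hc, Cfb, Cfi, Cd55, Cd59a and Serping1, were taken by symbol from a table of 25759 gene symbols. They were chosen with their difference between the genotypes in these same libraries known, so that difference is given as a description without a test. The cells came from C57BL/6 mice aged 14 weeks. The groups were 2 wild-type (WT) libraries and 2 libraries of mice labelled Sftpc-mTOR transgenic (mTOR Tg), which carry an active, conditional mTOR transgene named for the surfactant protein C gene. The transgene's inducer and its expression, the isolation of the cells, the sex of the mice and whether a library is 1 mouse or a pool were not given in the sources used here. Any p-value therefore measures only the spread between these samples, which may be technical.

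Complement is a cascade of plasma and tissue proteins that tags microbes and damaged cells. The classical, lectin and alternative routes each build an enzyme that cleaves C3, and the C3b so formed is deposited on surfaces. Cleavage of C5, encoded in the mouse by Hc, releases the inflammatory peptide C5a and starts the membrane attack complex. Host cells restrain the cascade with soluble and membrane-bound regulators. Most plasma complement comes from the liver, and alveolar type II cells are known as a local source in the lung.

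The 9 genes lie on 4 chromosomes of the mm10 assembly, with positions taken from GENCODE M21. C4b (chr17:34728380-34743882), Cfb (chr17:34856374-34862518) and C2 (chr17:34862604-34898265) lie in 1 segment of chromosome 17, the class III part of the major histocompatibility complex, all on the minus strand. Cfb and C2 are 85 bases apart in the annotation, and C4b and Cfb are 112 kb apart. C3 lies on the same chromosome, 22306 kb further on (chr17:57203970-57228136). Hc (chr2:34983331-35061438), Serping1 (chr2:84765387-84775444) and Cd59a (chr2:104095801-104115354) are on chromosome 2. Cfi is on chromosome 3 (chr3:129835884-129875332) and Cd55 on chromosome 1 (chr1:130439027-130462744). Whole genes, exons and introns together, are given by these positions, and counts fall on their exons.

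Promoter sequence was at hand for 4 of the 9 genes, from RefSeq on GRCm38.p6, the assembly called mm10. All 4 are shown. C3 and Cd55 were at nearly the same level in the pair of mTOR Tg libraries, whereas Hc and Cd59a lay over 2-fold apart in it. No link of that difference to the sequences was tested. Each run holds the 250 bases before the RefSeq start, 5′ to 3′ on the gene's strand, and capitals mark every match to a searched motif.
C3 (chr17:57228137-57228386, minus strand): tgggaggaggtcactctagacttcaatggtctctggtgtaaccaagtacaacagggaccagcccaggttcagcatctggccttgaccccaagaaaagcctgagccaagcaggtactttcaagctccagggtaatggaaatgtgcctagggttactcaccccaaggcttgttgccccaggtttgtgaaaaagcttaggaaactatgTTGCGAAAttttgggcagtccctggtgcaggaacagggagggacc
Cd55 (chr1:130462745-130462994, minus strand): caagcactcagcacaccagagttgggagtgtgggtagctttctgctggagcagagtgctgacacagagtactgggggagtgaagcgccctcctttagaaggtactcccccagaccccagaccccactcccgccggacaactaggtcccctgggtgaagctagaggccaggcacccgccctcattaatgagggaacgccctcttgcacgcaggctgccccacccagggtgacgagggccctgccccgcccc
Hc (chr2:35061413-35061662, minus strand): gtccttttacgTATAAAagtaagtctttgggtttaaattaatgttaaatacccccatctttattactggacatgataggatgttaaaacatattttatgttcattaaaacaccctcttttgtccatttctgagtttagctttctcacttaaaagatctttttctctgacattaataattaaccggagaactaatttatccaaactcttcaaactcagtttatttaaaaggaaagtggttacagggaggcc
Cd59a (chr2:104095551-104095800, plus strand): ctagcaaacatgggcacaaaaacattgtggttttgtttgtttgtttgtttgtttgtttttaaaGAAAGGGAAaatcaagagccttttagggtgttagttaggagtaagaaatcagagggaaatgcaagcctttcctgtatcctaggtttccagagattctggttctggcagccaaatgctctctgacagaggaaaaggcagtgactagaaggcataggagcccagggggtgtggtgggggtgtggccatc
The motifs, searched on both strands, were the interferon-stimulated response element GAAANNGAA, the interferon-gamma activated sequence TTCNNNGAA, the NF-kappaB site by its usual degenerate consensus, the C/EBP site TTGCNNAA, the E-box CACGTG and the TATA box TATAAA. The C3 window held 1 C/EBP match, from 45 to 38 bases before the start, and 9.56% of all 32851 RefSeq windows of the same length held such a match. The Cd59a window held 1 interferon-stimulated response element match, from 187 to 179 bases before the start, found in 7.13% of windows. The Hc window held a TATA box match 239 to 234 bases before the start, found in 12.4% of windows, and the Cd55 window held none of the motifs. No window held more than 1 match, so none overlapped, and a match is only a run of letters. The windows differ in base composition, from 31.2% G and C for Hc to 64.0% for Cd55.

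Total counts were 18146693 and 19018785 for WT replicates 1 and 2, and 21972124 and 20273396 for the mTOR Tg replicates. Type II markers were high in all 4 libraries, with Sftpc at 6.35% to 7.61% of counts. The club cell gene Scgb1a1 took 4.52% to 13.9% of counts, the highest share being that of mTOR Tg replicate 1. That library stood apart from the rest. Genes in its shortest quartile of exon length lay at a median of 0.42 above the WT mean on the log2 scale, and genes in its longest quartile at -0.47, where the medians of mTOR Tg replicate 2 were 0.00 and -0.00. Its summed club cell markers were 162239 CPM (counts scaled to a library total of 1000000) against 56893 to 91121 CPM elsewhere, its ciliated markers 4099 CPM against 2319 to 2920 CPM, and its type II markers 119913 CPM against 127608 to 158141 CPM. Leukocyte markers were near absent. Ptprc, expressed by all leukocytes, had 0, 3, 0 and 3 counts, and all macrophage and monocyte markers together 7.47 to 10.7 CPM, with C1qb and Adgre1 at 0. Red cell and platelet markers summed to 2550 and 3685 CPM in the WT pair and 3237 and 1043 CPM in the transgenic pair. Mtor itself was at 56.8, 56.7, 38.9 and 61.8 normalised CPM, and whether transgene reads are counted under that symbol is not given, so it does not check the labels. In bulk RNA, fewer cells of a type and less RNA per cell cannot be told apart.

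Hc and C3 dominated the transcripts of the 9 genes in these libraries. In this and the following paragraphs a normalised CPM is a gene's CPM on the scaled library size, and levels of different genes are compared per kilobase (kb) of annotated exon. In WT, Hc was at 423 ± 8.20 normalised CPM per kb (SD, n = 2) and ranked 72 among 13137 tested genes with a known exon length. C3, the protein on which all routes converge, followed at 132 ± 3.64 CPM per kb, at rank 270. Together they made up 92.3% and 91.1% of the summed level per kb of the 9 genes in WT. Among the 9 genes, the membrane regulators came next, although Clu and C6 outside the 9 were higher, at 55.5 and 35.3 CPM per kb in WT. Cd55, which encodes the decay-accelerating factor that takes apart C3 convertases, was at 28.7 ± 1.31 CPM per kb, and Cd59a, which encodes an inhibitor of the membrane attack complex, at 13.0 ± 1.91 CPM per kb.

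The other 5 genes were low. Factor B (Cfb), the protease of the alternative route, was at 3.87 ± 1.82 CPM per kb in WT. The C1 inhibitor gene Serping1 was at 2.16 ± 0.447, C4b at 1.48 ± 0.110, the C3b-degrading protease gene Cfi at 0.562 ± 0.150 and C2 at 0.251 ± 0.0141 CPM per kb. All of these lay below the middle of the tested genes, from the 44.7th percentile for Cfb to the 6.11th for C2. In this order no pair of neighbours had overlapping WT values, although Cfb and Serping1 did overlap when the longest transcript replaced the union of exons as the length. In mTOR Tg the order was the same for the first 5 genes, then C4b, Serping1, C2 and Cfi. There the values of Cd59a and Cfb, of C4b and Serping1, and of C2 and Cfi overlapped. With the longest transcript as the length, Serping1 lay above C4b in mTOR Tg, at 4.25 to 4.39 against 3.39 to 3.93 CPM per kb.

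**Figure D1:**
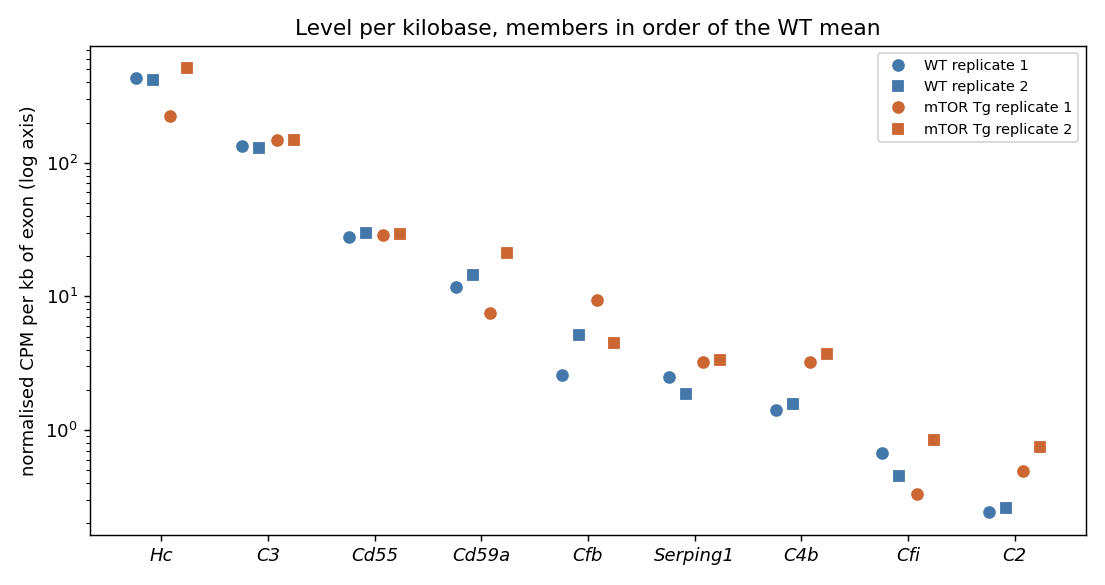
Normalised CPM per kb of exon (log axis) of the 9 genes in the 4 libraries, ordered by the WT mean, with circles for replicate 1 and squares for replicate 2. Hc and C3 lie highest and C2 and Cfi lowest in both genotypes.

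C4b, C2, Serping1 and C3 were higher in both mTOR Tg libraries than in both WT libraries, and none of the 9 genes was lower in both. Over all 13306 genes tested, 17.6% had both mTOR Tg values above the WT pair and 17% had both below, and since the genes were chosen on this contrast nothing is read from their count of 4. All 9 genes passed the filter on low counts. edgeR's quasi-likelihood test called 0 of the 13306 genes at an adjusted p threshold of 0.05, 0% in either direction. At an unadjusted p under 0.05 there were 205 higher genes (1.54%) and 122 lower (0.917%). DESeq2 called 9 higher (0.068%) and 4 lower (0.0302%), none of them a complement gene outside the 9. The median log2 fold change was 0.17 over the 9 genes and 0.01 over all genes tested. Markers of mesothelial cells, which line the lung surface, lay in the same direction. They summed to 10.3 and 20.9 CPM in the WT pair and 30.7 and 22.8 CPM in the transgenic pair, none was at 0 in all libraries, and 4 of 6 tested were above WT in both mTOR Tg libraries. Of the 8 alveolar type I markers 3 were above WT in both, with sums of 1609 and 1550 CPM in the WT pair and 1986 and 1722 CPM in the transgenic pair. The part of either list in the results was not tested.

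**Figure D2:**
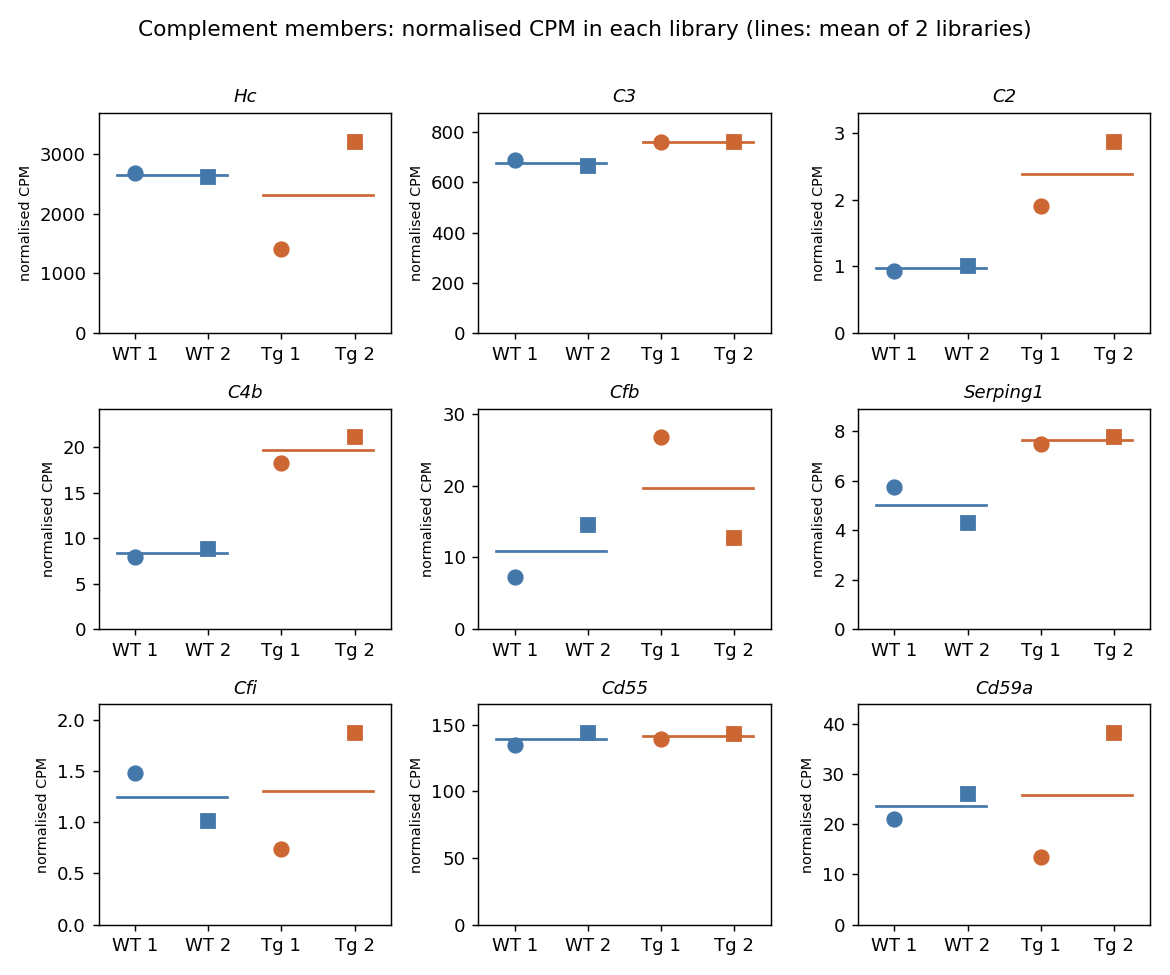
Normalised CPM of each gene in WT replicates 1 and 2 (blue) and mTOR Tg replicates 1 and 2 (orange), each axis from 0, with a line at the mean of each pair. C2, C3, C4b and Serping1 show both orange points above both blue ones, and Hc, Cd59a and Cfi show 1 orange point on each side of the blue pair.

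C4b encodes C4, which is cleaved by the classical and lectin proteases and carries C2 into the C3 convertase. It was at 7.96 and 8.84 normalised CPM in the WT pair and 18.3 and 21.1 CPM in the transgenic pair, from 145, 175, 372 and 441 counts. The mTOR Tg values were close together and all well above the WT pair, a log2 fold change of 1.23 (SE 0.22). C4b kept this size without either mTOR Tg library, at 1.33 with mTOR Tg replicate 1 left out and 1.12 with replicate 2 left out. C4a, its neighbour and near copy, was not among the gene symbols counted, and 35.2% of the 50-base windows of the longest C4b transcript also occur in C4a. The C4b count may therefore hold reads of both genes.

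C2, the protease that C4b carries, was counted in small numbers. It had 17 and 20 counts in the WT pair and 39 and 60 in the transgenic pair, which are 0.933, 1.01, 1.91 and 2.87 normalised CPM. Both mTOR Tg values were higher, with a log2 fold change of 1.29 (SE 0.39). The 95% exact intervals of the counting error, in CPM of the library total, were 0.642 to 1.62 in WT replicate 2 and 1.26 to 2.43 in mTOR Tg replicate 1, so these libraries overlap in counting error. The interval of mTOR Tg replicate 2, 2.26 to 3.81, lay above both WT intervals. Such intervals cover counting error only and leave out variation between libraries. They may also be too narrow, since reads that lack molecular identifiers cannot be taken as separate molecules.

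The C2 count is less sure than its total says. The annotated gene Gm20547 runs through Cfb and C2 on the same strand and shares 1656 exonic bases with C2 and 2246 with Cfb. In the longest transcripts, 58.0% of the C2 windows of 50 bases and 81.4% of those of Cfb also occur in Gm20547. Gm20547 had 0 counts in both WT libraries and 18 and 12 in the transgenic pair. How reads in the shared exons were assigned was not given in the sources used here. Zbtb12, on the opposite strand, overlaps C2 with 161 shared exonic bases, and without known strandedness their reads cannot be told apart there. Zbtb12 went the other way, at 9.33 and 8.84 CPM in the WT pair and 7.60 and 7.71 CPM in the transgenic pair.

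Serping1 encodes the C1 inhibitor, a serpin that blocks the C1 and lectin proteases and also plasma kallikrein. Its values were 5.76 and 4.30 normalised CPM in the WT pair and 7.51 and 7.76 CPM in the transgenic pair, from 105, 85, 153 and 162 counts. The mTOR Tg libraries lay closer together than the WT libraries, and the groups did not overlap. In counting error they did, since the exact interval of WT replicate 1, 4.73 to 7.0 CPM of the library total, overlapped those of both mTOR Tg libraries, 5.90 to 8.16 and 6.81 to 9.32. The log2 fold change was 0.60 (SE 0.27), and it ran from 0.40 without WT replicate 2 to 0.83 without WT replicate 1.

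C3 was higher by a small amount. It was at 691 and 665 normalised CPM in the WT pair and 760 and 762 CPM in the transgenic pair, from 12586, 13149, 15490 and 15921 counts. The groups did not overlap, and the log2 fold change of 0.17 (SE 0.20) was smaller than its error. C3 did not share any window of 50 bases with another gene's transcripts.

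Cfb did not separate the genotypes. Its values were 7.30 and 14.6 normalised CPM in the WT pair and 26.7 and 12.7 CPM in the transgenic pair, from 133, 288, 545 and 266 counts. mTOR Tg replicate 1 was highest, and mTOR Tg replicate 2 lay between the WT libraries. The log2 fold change of 0.85 (SE 0.48) was 0.21 without mTOR Tg replicate 1, 1.28 without mTOR Tg replicate 2, 0.44 without WT replicate 1 and 1.43 without WT replicate 2. Cfb and C2 lie 85 bases apart but ordered the libraries differently, and the ratio of Cfb to C2 per kb was 10.7, 19.7, 19.2 and 6.08 in the 4 libraries.

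**Figure D3:**
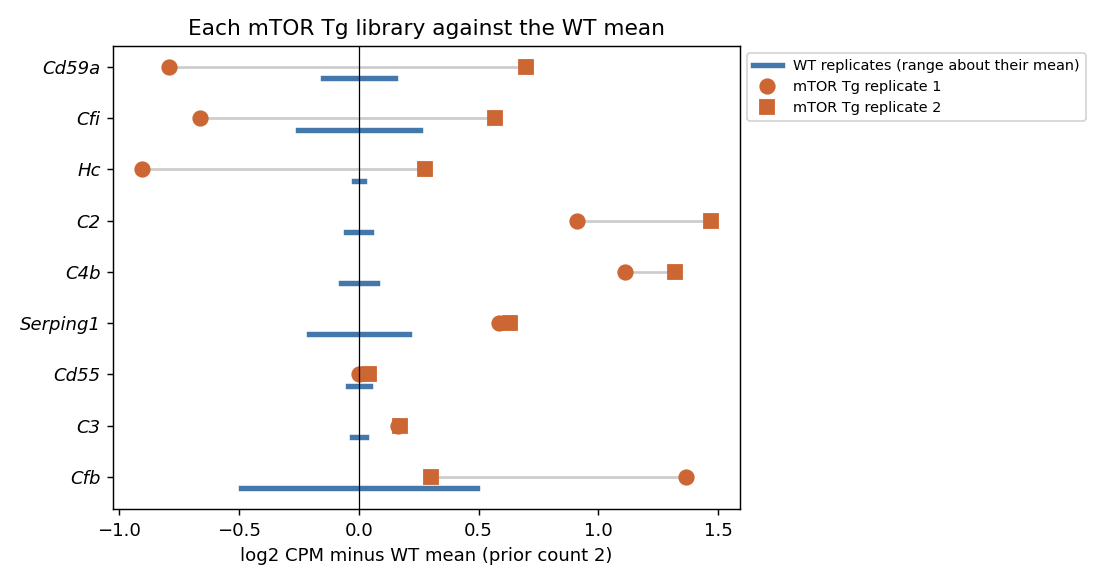
Log2 CPM (prior count 2) of each mTOR Tg library minus the WT mean, for the 9 genes, with a blue bar for the range of the WT pair about its mean. C4b, C2, Serping1 and C3 have both libraries to the right of that bar, and Cd59a, Cfi and Hc have mTOR Tg replicate 1 on the left and replicate 2 on the right.

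Hc, Cd59a and Cfi split the mTOR Tg pair. Hc was at 2685 and 2613 normalised CPM in the WT pair, 1413 CPM in mTOR Tg replicate 1 and 3203 CPM in mTOR Tg replicate 2, from 48910, 51696, 28795 and 66896 counts. The WT libraries were alike, 1 mTOR Tg library lay below them and the other above. The log2 fold change of -0.20 (SE 0.42) was -0.91 with mTOR Tg replicate 2 left out and 0.27 with replicate 1 left out. The ratio of Hc to C3 per kb was 3.19 and 3.23 in the WT pair, 1.53 in mTOR Tg replicate 1 and 3.45 in replicate 2. In mTOR Tg replicate 1 the 9 genes together took 0.221% of all counts, against 0.357% to 0.432% in the other libraries.

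Cd59a showed the same split more widely. Its values were 21.1 and 26.0 normalised CPM in the WT pair and 13.5 and 38.2 CPM in the transgenic pair, from 385, 515, 275 and 797 counts. The mTOR Tg libraries lay 2.83-fold apart, with the WT pair between them. The log2 fold change of 0.13 (SE 0.49) was -0.81 with mTOR Tg replicate 2 left out and 0.69 with replicate 1 left out. Cd59b, its tandem copy 4.61 kb away, was at 0.824 and 0.657 CPM in the WT pair and 1.32 and 1.10 CPM in the transgenic pair, with 13 to 27 counts a library, and shares 3.98% of the windows of Cd59a. In mTOR Tg replicate 1, Cd59a thus lay below the WT pair and Cd59b above it, the latter on few counts.

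Cfi had the fewest counts of these, with 27 and 20 in the WT pair and 15 and 39 in the transgenic pair. It was at 1.48, 1.01, 0.736 and 1.87 normalised CPM, again with mTOR Tg replicate 1 lowest and replicate 2 highest. The log2 fold change of 0.07 (SE 0.56) was -0.75 with mTOR Tg replicate 2 left out and 0.59 with replicate 1 left out. The exact intervals of WT replicate 1, 0.981 to 2.16 CPM, and of mTOR Tg replicate 2, 1.37 to 2.63, overlapped.

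Of the 13306 genes, 14.6% lay over 2-fold apart between the mTOR Tg libraries and 1.98% between the WT libraries. Among the 9 genes, Hc, Cd59a, Cfi and Cfb were over 2-fold apart in mTOR Tg and none was in WT. For Cfb this rests on the cut-off. Its replicate 2 minus replicate 1 difference was 0.99 on the log2 scale in WT and -1.06 in mTOR Tg. Exon length was set beside these values because mTOR Tg replicate 1 differed by length. Cd59a and Cfi are in the shortest length quartile, whose median lay 0.42 above WT in that library, and they lay 0.79 and 0.66 below the WT mean. Serping1, in the same quartile, lay 0.58 above the WT mean there, which is 0.17 above the quartile median. Hc, in the third quartile with a median of -0.10, lay 0.91 below. C4b is in the same quartile as Hc and lay 1.11 above. After a correction of each library for its own length trend, the log2 fold changes were 1.32 for C4b, 1.28 for C2, 0.72 for Cfb, 0.47 for Serping1, 0.23 for C3, 0.07 for Cd55, 0.02 for Cd59a, -0.04 for Cfi and -0.12 for Hc. The median of type II markers in mTOR Tg replicate 1 was -0.24 against WT and 0.14 in replicate 2, the same order as for Hc, and the median of club cell markers was 0.89 and -0.40. The part of either in the results was not tested.

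Cd55 was the steadiest of the 9. It was at 135 and 144 normalised CPM in the WT pair and 139 and 143 CPM in the transgenic pair, from 2454, 2844, 2838 and 2991 counts. Both mTOR Tg values lay within the WT range, with a log2 fold change of 0.02 (SE 0.18). Its tandem copy Cd55b, 16.0 kb away, was at 1.04 and 1.31 CPM in the WT pair and 1.57 and 1.44 CPM in the transgenic pair, from 19 to 32 counts. Of the Cd55 windows 10.9% occur in Cd55b, so part of either count may belong to the other. The ratio of Cd55 to Cd59a per kb was 2.38 and 2.06 in the WT pair, 3.85 in mTOR Tg replicate 1 and 1.40 in replicate 2.

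Genes around C4b, Cfb and C2 on chromosome 17 did not all share their values. Within 100 kb either side there were 16 other tested genes besides Gm20547, of which 4 had both mTOR Tg values above the WT pair (Fkbpl, Dxo, Neu1 and Lsm2, named after their values were seen) and 1 had both below (Zbtb12), against 17.6% and 17% of all genes. Their median log2 fold change was 0.20 and their highest 0.69. In mTOR Tg replicate 2, C2 and C4b lay 1.47 and 1.32 above the WT mean on the log2 scale, where the highest of the 16 other genes was at 0.37. In mTOR Tg replicate 1 they did not stand clear of these genes, with C2 at 0.91, C4b at 1.11 and Fkbpl at 1.12. The genes next to C4b on either side in the table that could be tested, Tnxb and Stk19, had log2 fold changes of -0.35 and 0.22. The lowest value in the segment was that of the stress-inducible heat shock gene Hspa1a, also named afterwards, with 21318 and 2953 counts in the WT pair and 3926 and 556 in the transgenic pair, a spread within each genotype that none of the complement genes showed.

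**Figure D4:**
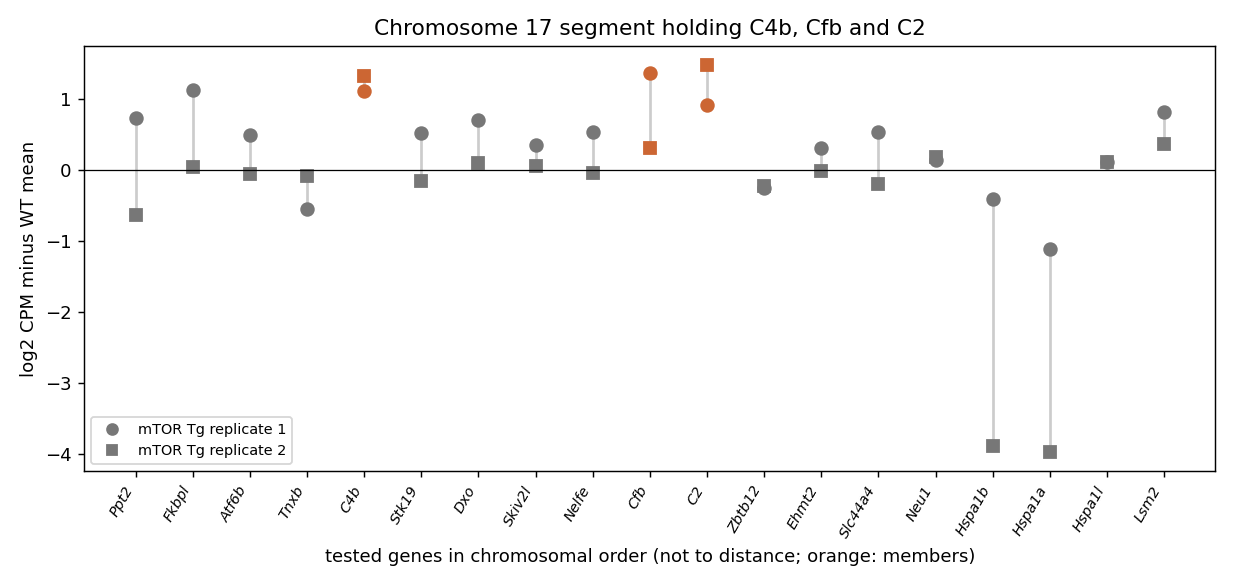
Log2 CPM minus the WT mean in mTOR Tg replicate 1 (circles) and replicate 2 (squares) for the tested genes around C4b, Cfb and C2, in chromosomal order but not to distance and without Gm20547, which had no WT count. In replicate 2 only C4b and C2 lie above 1, and Hspa1b and Hspa1a lie lowest. In replicate 1 Cfb, Fkbpl and C4b lie above 1.

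The rest of the pathway was taken from a list of 52 further complement genes, of which 50 were in the table, 16 had no count in any library and 21 could be tested. None of the 21 passed the adjusted threshold in either direction, and 1, Clu, had an unadjusted p under 0.05. Both mTOR Tg libraries were above both WT libraries in 7 and below in 4 of the 21, against 17.6% and 17% of all genes. Their median log2 fold change was 0.18, against 0.01 over all genes. In the fits with 1 mTOR Tg library left out, which rest on a single library of that genotype, 1 of these genes (Clu) was called without replicate 1, where 1.25% of all genes were called higher and 0.948% lower. Without replicate 2 there were 5 (Clu, Cfp, Susd4, C5ar2 and Cd93), where 21.8% of all genes were called higher and 23.6% lower.

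The classical and lectin starters were sparse. C1qb had no count in any library, against a floor of 3 counts or 0.137 to 0.165 CPM, and C1qa had 0, 0, 0 and 1, both named after their values were seen. The 3 classical proteases that could be tested were counted and had positive log2 fold changes. C1s1, the protease that cleaves C4 and C2, was at 2.69 and 2.17 normalised CPM in the WT pair and 3.48 and 3.26 CPM in the transgenic pair, a log2 fold change of 0.47 (SE 0.30). C1rl, a relative of C1r, was the highest of that list at 4.04 CPM per kb in WT. The mannose-binding lectin gene Mbl1 was at 3.95 and 4.60 CPM in the WT pair and 3.19 and 3.11 CPM in the transgenic pair, a log2 fold change of -0.44 (SE 0.27). Colec12, a scavenger receptor collectin, had 9 to 27 counts and a log2 fold change of 0.10 (SE 0.62).

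In the alternative route, the factor D gene Cfd, named after its values were seen, had no count in any library. Properdin (Cfp), which stabilises the C3 convertase, had 25 and 19 counts in the WT pair and 51 and 22 in the transgenic pair, so only mTOR Tg replicate 1 stood out, as it did for Cfb. Of the terminal genes, C6 was well expressed at 35.3 CPM per kb in WT, and was at 127 and 124 CPM in the WT pair and 107 and 135 CPM in the transgenic pair. C7 had 25 to 58 counts, with log2 fold change -0.22 (SE 0.49), and C8g 8 to 21, with 0.22 (SE 0.58). C8a, C8b and C9, named after their values were seen, had no count in any library. Transcripts of C5 and C6 were thus abundant where those of other membrane attack proteins were few or not found at this depth.

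Clusterin (Clu), a secreted chaperone that also inhibits the membrane attack complex, had the highest WT level per kb among the other regulators, at 55.5 CPM per kb, and was higher in both mTOR Tg libraries. It was at 199 and 183 normalised CPM in the WT pair and 359 and 287 CPM in the transgenic pair, with an edgeR log2 fold change of 0.76 (SE 0.21) and an adjusted p of 0.860. Susd4, a membrane regulator, was at 26.1 and 28.9 CPM in the WT pair and 20.2 and 20.3 CPM in the transgenic pair, with an edgeR log2 fold change of -0.44 (SE 0.20) and an adjusted p of 0.860. Cr1l, the rodent membrane regulator also called Crry, named after its values were seen, stayed close to WT, at 45.4 and 45.7 CPM in the WT pair and 50.8 and 43.9 CPM in the transgenic pair.

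Receptors of complement fragments were few. C3ar1 had no count, and C5ar1, the main receptor of C5a, had 1, 0, 1 and 1. C5ar2, the other C5a receptor, was at 9.61 and 8.54 normalised CPM in the WT pair, 3.73 CPM in mTOR Tg replicate 1 and 10.1 CPM in replicate 2, the split seen for Hc, its ligand's gene. These genes were named after their values were seen. Cd93, an endothelial and myeloid surface protein, was at 5.0 and 3.94 CPM in the WT pair and 1.32 and 3.30 CPM in the transgenic pair, a log2 fold change of -0.94 (SE 0.47) that was -0.43 without mTOR Tg replicate 1 and -1.75 without replicate 2. Summed endothelial markers were 116 and 129 CPM in the WT pair and 71.4 and 66.6 CPM in the transgenic pair. Of the 8 tested, 5 had both mTOR Tg libraries below both WT libraries, against 17% of all genes. The part of these markers in the Cd93 value was not tested. C1qbp, whose product is found mainly in mitochondria, had a log2 fold change of 0.18 (SE 0.22).

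**Figure D5:**
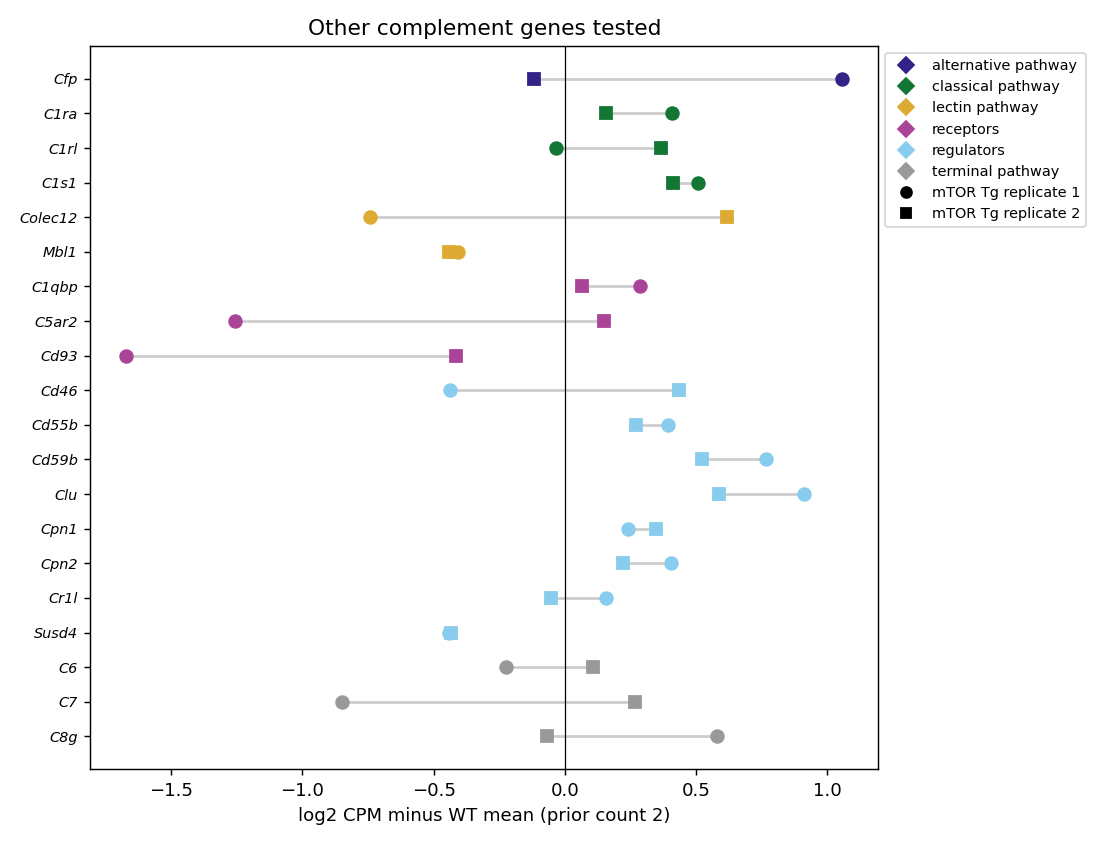
Log2 CPM (prior count 2) minus the WT mean in mTOR Tg replicate 1 (circles) and replicate 2 (squares) for 20 of the 21 tested complement genes outside the 9, coloured by pathway. Clu lies right of 0 in both libraries, Susd4 and Mbl1 left of 0 in both, and C5ar2 and C7 lie on both sides.

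Signals known to induce complement genes and the acute phase proteins were set beside the members. Of 20 genes of interferon-gamma, interleukin and NF-kappaB signalling, all tested, none was called, 4 were above WT in both mTOR Tg libraries and 1 below, against 17.6% and 17% of all genes. Their median log2 fold change was 0.04, against 0.01. Socs3, the feedback inhibitor of interleukin-6 signalling, was at 145 and 117 normalised CPM in the WT pair and 162 and 190 CPM in the transgenic pair, a log2 fold change of 0.42 (SE 0.22). Nfkbiz, a nuclear co-regulator of NF-kappaB targets, was at 32.3 and 28.9 CPM in the WT pair and 12.1 and 23.3 CPM in the transgenic pair, a log2 fold change of -0.79 (SE 0.34) that was -0.39 without mTOR Tg replicate 1 and -1.34 without replicate 2. Irf1, an interferon-gamma effector named after its values were seen, had a log2 fold change of 0.06 (SE 0.20). Cebpb, likewise named afterwards, was at 79.8 and 87.8 CPM in the WT pair, 225 CPM in mTOR Tg replicate 1 and 81.3 CPM in replicate 2, so that mTOR Tg replicate 1 was highest, as for Cfb.

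Of the 18 acute phase genes 10 were tested. All 10 log2 fold changes were positive, as were 6772 of the 13306 over all genes, and their median was 0.46 against 0.01. None was called, and 4 had both mTOR Tg libraries above WT, against 17.6% of all genes. Cd14, the co-receptor for lipopolysaccharide, was at 68.5 and 71.1 normalised CPM in the WT pair and 127 and 97.9 CPM in the transgenic pair, with an edgeR log2 fold change of 0.69 (SE 0.21) and an adjusted p of 0.860. Haptoglobin (Hp), which is also on the club cell marker list and was named after its values were seen, was at 2471 and 2509 CPM in the WT pair, 4608 CPM in mTOR Tg replicate 1 and 1947 CPM in replicate 2, the library order of the club cell markers.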

How the data were processed

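Counts were whole-number reads per gene symbol in a single table deposited by the authors, with 1 column per library matched to the labels by name. HISAT2, edgeR and the build mm10 are named per the submitters' processing notes, while versions, settings, strandedness, the counter and its gene models were not given in the sources used here. Members and lists were chosen with earlier results of these data known. Named genes were the 9 members, near copies, the smallest p in each direction and, for complement lists, the highest level per kb, beside markers, Mtor and genes next to or overlapping a member, and others are marked where named. Single genes of these lists that are not reported here by name remain in the list counts.

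edgeR 4.0.16 in R 4.3.3 kept genes by filterByExpr (minimum count 10), used TMM factors (0.928 to 1.04) and a quasi-likelihood test of genotype on 2 against 2 libraries, with Benjamini-Hochberg adjustment. The SE is the log2 fold change over the root of its F statistic. Log2 CPM used a prior count of 2, and summed marker CPM used raw library totals. Exon lengths were unions of GENCODE M21 exons by symbol, found for 98.7% of tested genes. The code was tested on simulated data. The alternatives were other scalings, filters, DESeq2 1.42.0, limma-voom (limma 3.58.1), a replicate block, a length correction and leaving out each library.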

Additional observations from a re-analysis of the deposited data

How the results depend on the processing

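The edgeR count of 0 genes called stayed at 0 with DESeq2 size factors, library totals, no filter, a minimum count of 50, the length correction and limma-voom. It was 13 in DESeq2, 37 with the replicate number as a block, and 11 to 6200 with 1 library left out, with 6200 when mTOR Tg replicate 2 was left out and 299 when mTOR Tg replicate 1 was. The replicate differences of the genotypes correlated at r = 0.071 across genes, which are not independent. Since mTOR Tg replicate 1 stood apart, so low a value cannot show whether replicate numbers pair the samples. None of the other complement genes was called with the block. Calls among other complement genes ranged from 0 to 5 with 1 library left out. Members above the WT pair in both mTOR Tg libraries numbered 4 under each scaling, and members below numbered 0. With 1 library left out, members with every remaining mTOR Tg value above every remaining WT value numbered 4 to 7. Members below on the same rule numbered 0 to 3. This rule compares fewer libraries and is easier to meet, and its share over all genes is not given here. Nothing is therefore read from the counts with 1 library left out. The cause of their range was not tested.

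C2, C3, C4b, Cfb and Serping1 kept their direction in every alternative that fitted them, and C2 and Cfi fell under the minimum count of 50. With 1 library left out, log2 fold changes that changed sign ran from -0.028 to 0.067 for Cd55, -0.81 to 0.69 for Cd59a, -0.75 to 0.59 for Cfi, -0.91 to 0.27 for Hc, -0.88 to 0.66 for Colec12, -0.14 to 1.11 for Cfp, -0.22 to 0.90 for C8g and -0.92 to 0.26 for C7. Other changes of sign were -0.042 for Cd55 with library totals, -0.040 for Cd59a with the block, -0.048 for Cd59a, -0.050 for Cfi and -0.086 for Colec12 in limma-voom, and -0.042 for Cfi and -0.023 for C8g with the length correction. With 2 libraries a group, the smallest exact permutation p is 0.333. Counts under 100 in at least 1 library limit C2, Cfi, Serping1, Cd55b, Cd59b, C1s1, Mbl1, Colec12, Cfp, C7, C8g, C5ar2 and Cd93, and Fkbpl, Tnxb and Lsm2 near C4b.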
